A study of Homo sapiens with 36 samples.

Results

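C4-2B and C4-2 are related human prostate cancer (PCa) cell lines, and the difference between them when each was grown alone is described here. The comparison rests on 6 of the 36 RNA-seq libraries of the series, 3 of C4-2B and 3 of C4-2, and the libraries were taken by their labels: mono-culture, no added RANKL, RNA taken on day 5. C4-2 is a castration-resistant subline of the androgen-responsive LNCaP line that was obtained by passage in mice, and C4-2B was recovered from a bone metastasis of C4-2 in a mouse. The study groups both as osteoblastic PCa (BPCa), the kind that lays down bone, and sets them against the osteolytic lines DU145 and 22Rv1 (LPCa). Both C4-2 lines are luminal-type prostate cells, and in such cells androgens raise a set of genes that includes the gene of prostate-specific antigen. Bone-derived sublines of this kind are used to ask which genes go with growth in bone, through secreted factors that act on osteoblasts, adhesion molecules or altered metabolism.

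The same lines were also sequenced in 3 other cultures, with 2 libraries per line each, and these 12 libraries share no sample with the mono-culture comparison. In the first, the PCa cells shared medium through a filter with MG63, a human osteosarcoma line used as a model of osteoblasts. In the second they were grown alone with RANKL at 50 ng/mL, the cytokine that drives osteoclast formation. In the third they shared medium with RAW264.7, mouse monocytic cells that can become osteoclasts, and the same dose of RANKL. The labels name no transgene or drug in these groups. Both are established cell lines, and the labels do not state that libraries of a group came from separate cultures. The study's methods speak of independent experiments for bar graphs in general. The p-values measure the spread between these libraries, which may be technical.

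The 6 mono-culture libraries held between 27738951 and 36719047 counts, and the other 12 held between 10869447 and 15418211. Levels are given in CPM, the counts of a gene divided by the total of its library and multiplied by 1000000, and compare samples within a gene, not genes with each other. A count of 3 corresponded to at most 0.108 CPM in the 6 libraries and 0.276 CPM in the other 12. The cultures with RANKL stood apart from the others in the contrast between the lines, as shown further on. Replicates of a group varied by more than counting error in all pairs, so that each library was kept as its own sample.

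Both lines carried the luminal prostate markers. All 13 markers of luminal identity were measured, and together they held 8545 to 8846 CPM in the C4-2 libraries and 9389 to 9881 CPM in the C4-2B libraries. The 10 markers of mesenchymal and osteoblast-like cells summed to 6.93 to 8.09 CPM in C4-2 and 5.96 to 6.27 CPM in C4-2B, most of it COL1A1, a collagen chain, and LUM and POSTN were at or under 3 counts throughout. Immune markers held 22.0 to 26.4 CPM in C4-2 and 26.8 to 27.7 CPM in C4-2B, most of it CD68, a lysosomal protein. In both lists the sums of the lines did not overlap, and their part in the results was not tested. The endothelial markers held at most 2.49 CPM.

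The lines differed in few genes by a large amount. Of 11522 genes tested, 101 were higher and 87 were lower in C4-2B by more than 2-fold at a Benjamini-Hochberg adjusted p under 0.05, which is 0.877% and 0.755% of the genes, or 1.63% in all. The same rule called 39.6% of genes between DU145 and 22Rv1 and 27.4% between 22Rv1 and C4-2, the other mono-cultures. Small differences were common: with no minimum fold, 1886 genes (16.4%) were higher and 1697 (14.7%) lower in C4-2B. The levels of the 3 C4-2B libraries did not overlap those of the 3 C4-2 libraries in 187 of the 188 called genes, and in 49.2% of all genes tested. Of the called genes, 174 code for proteins (90 higher, 84 lower), 13 are pseudogenes and 4 lie on chromosome Y and are counted but not named. The 2-fold threshold was passed by 21 genes at more than 4-fold in each direction. Genes were tested if they reached 100 counts in any of the 6 libraries. Of the called genes, 106 had a mean under 100 counts in 1 line, so that many entered through the other line. For these, entry into the test and direction are tied, also within the gene lists below.

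The gene with the largest rise was CA2. It codes for the cytosolic carbonic anhydrase that interconverts CO2 and bicarbonate and that osteoclasts also use. CA2 stood at 0.558, 0.329 and 0.371 CPM in C4-2 and at 10.1, 8.32 and 8.02 CPM in C4-2B. All C4-2B libraries were far above all C4-2 libraries, a 21.0-fold difference of the means (log2 fold change 4.39 ± 0.17 SE, adjusted p = 8.76e-10). Its neighbour CA1, a second carbonic anhydrase that lies 84.8 kb away on chromosome 8, was at 3.37, 1.22 and 0.857 CPM in C4-2 and at 27.1, 26.0 and 21.0 CPM in C4-2B. The groups again did not meet (log2 fold change 3.78 ± 0.32, adjusted p = 1.35e-06), although the C4-2 libraries differed among themselves: without the first of them the log2 fold change was 4.61.

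**Figure D1:**
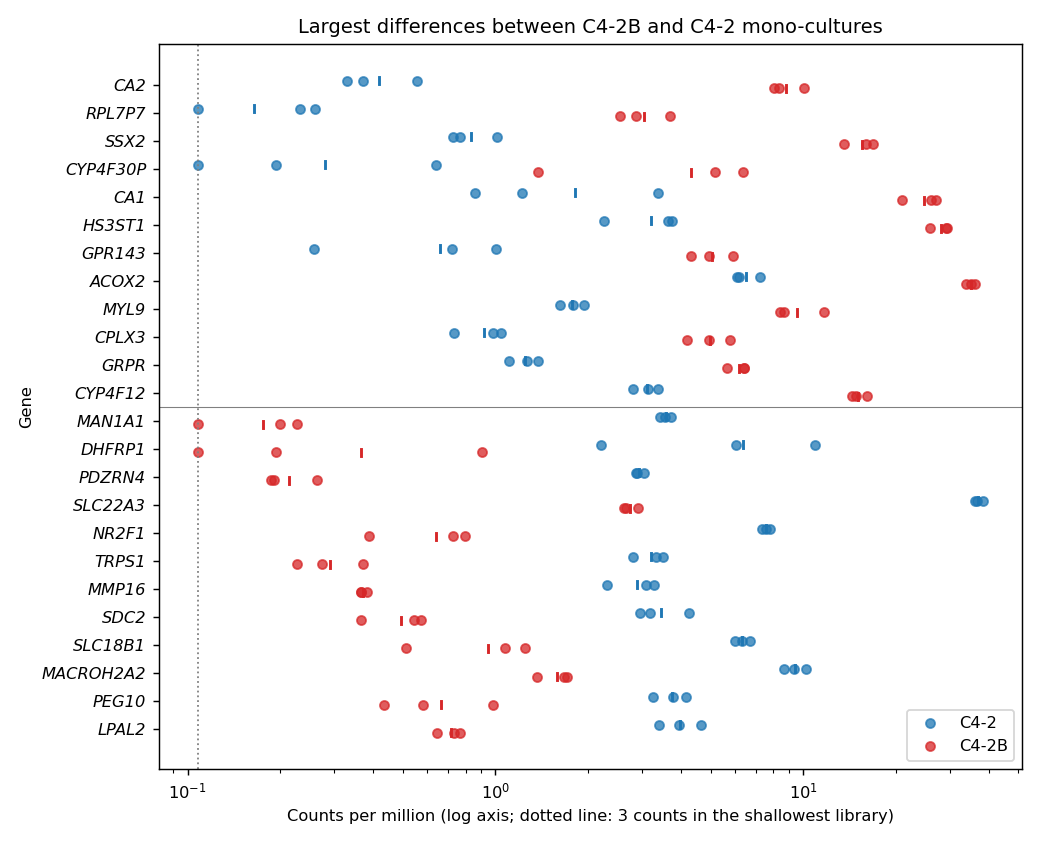
Levels of the 24 genes with the largest differences, 12 higher (above the line) and 12 lower (below it) in C4-2B, in CPM on a log axis. Points are the 3 libraries of each line, ticks are their means, and values under the dotted line (3 counts in the shallowest library) are drawn on it. No gene shows overlap between the lines.

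SSX2 codes for a nuclear cancer-testis antigen that is silent in most adult tissues. It was at 0.765, 0.728 and 1.01 CPM in C4-2 and at 16.8, 16.0 and 13.6 CPM in C4-2B, so that the groups were 18.5-fold apart (log2 fold change 4.24 ± 0.16, adjusted p = 5.80e-10). SSX2 has a near-identical copy, and reads of the copies cannot be separated. It lies on chromosome X (52696896 to 52707189, minus strand). XAGE1B, 176 kb from it, and XAGE1A, 11.3 kb beyond, are nearly identical cancer-testis genes and were higher too. XAGE1A stood at 2.49 to 3.07 CPM in C4-2 and 9.67 to 11.9 CPM in C4-2B, and XAGE1B was 3.43-fold higher. The groups did not overlap in either. These were the 3 called genes among 13 cancer-testis genes tested, beside 0.877% of all genes called higher. At any fold 5 were higher and 1 lower, and the median of the list was 0.14 on the log2 scale.

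The other large rises were spread over genes of varied roles. HS3ST1, an enzyme that puts the 3-O-sulfate on heparan sulfate, was at 2.26, 3.73 and 3.64 CPM in C4-2 and at 29.4, 25.8 and 29.1 CPM in C4-2B (log2 fold change 3.18 ± 0.19, adjusted p = 4.01e-08). GRPR, the receptor for gastrin-releasing peptide that is often abundant in PCa, was at 1.38, 1.11 and 1.26 CPM against 6.44, 5.66 and 6.44 CPM (2.34 ± 0.25, adjusted p = 1.15e-05). MYL9, a regulatory light chain of non-muscle and smooth muscle myosin, was at 1.62 to 1.94 CPM against 8.38 to 11.7 CPM. In each of these the C4-2B libraries lay wholly above the C4-2 libraries. CPLX3, a complexin that acts in vesicle release, was 5.41-fold higher at low level (0.919 against 4.97 CPM on average). GPR143, a melanosomal receptor, was 7.65-fold higher with an adjusted p of 0.0112 in edgeR, but did not pass with DESeq2 (adjusted p = 0.0607) or without the first C4-2 library (adjusted p = 0.0533). RPL7P7 and CYP4F30P, the other genes of this group, are pseudogenes whose reads may come from related genes. RPL7P7 came to 3.69 (log2) without the first C4-2 library, from 4.32, and CYP4F30P to 3.42 and 5.53 without the first and second C4-2 libraries, from 4.05. Over all alternatives CYP4F30P ranged from 3.42 to 6.39.

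ACOX2 and CYP4F12 complete the 12 largest rises. ACOX2, a peroxisomal oxidase that acts on branched-chain fatty acids and bile acid intermediates, was at 6.18, 7.25 and 6.09 CPM in C4-2 and at 35.1, 33.8 and 36.2 CPM in C4-2B. The groups were tight and 5.39-fold apart (2.48 ± 0.19, adjusted p = 4.88e-07). CYP4F12, a cytochrome P450 that hydroxylates fatty acids, was at 2.79 to 3.38 CPM against 14.4 to 16.1 CPM (2.32 ± 0.13, adjusted p = 1.61e-08). It lies on chromosome 19 among 3 other called genes of its family, which are CYP4F23P, CYP4F3 and CYP4F2, within 181 kb gaps. CYP4F3, an omega-hydroxylase of leukotriene B4, rose from a mean of 35.2 to 167 CPM (2.29 ± 0.07, adjusted p = 1.37e-10). The family members are alike in sequence, and the estimated counts may share reads between them. AMACR, the racemase of branched-chain fatty acids that is a diagnostic marker of PCa, rose from 72.2 to 201 CPM (1.52 ± 0.06, adjusted p = 4.44e-10). CYP4F3 and AMACR are not among the 24 largest and were singled out after their values were seen.

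Among the genes ranked, which leave out chromosome Y, MAN1A1 showed the largest fall in C4-2B. It codes for a Golgi mannosidase that trims N-glycans, and lies on chromosome 6 (119177209 to 119349761, minus strand). It was at 3.43, 3.71 and 3.57 CPM in C4-2 and at 0.101, 0.199 and 0.226 CPM in C4-2B, a few counts per library (log2 fold change -4.31 ± 0.20, adjusted p = 4.09e-09). SLC22A3 codes for an organic cation transporter that moves monoamines and drugs into cells. It was at 38.4, 36.1 and 36.7 CPM in C4-2 and 2.66, 2.62 and 2.91 CPM in C4-2B, so that the C4-2 libraries were 13.6-fold above (-3.72 ± 0.09, adjusted p = 1.26e-11). LPAL2, a lipoprotein(a)-like pseudogene on the other strand of chromosome 6 that ends 0.847 kb from the end of SLC22A3, was lower as well, with 3.39 to 4.65 CPM against 0.644 to 0.769 CPM.

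The next falls named include regulators of transcription. NR2F1, an orphan nuclear receptor also called COUP-TF1, was at 7.57, 7.80 and 7.37 CPM in C4-2 and at 0.731, 0.799 and 0.388 CPM in C4-2B (-3.51 ± 0.17, adjusted p = 4.26e-09). TRPS1, a GATA-type repressor that acts in cartilage and bone, was at 2.79 to 3.5 CPM against 0.226 to 0.372 CPM (-3.45 ± 0.23, adjusted p = 1.13e-07). MACROH2A2, a macroH2A histone variant linked to silent chromatin, was at 8.63 to 10.2 CPM against 1.37 to 1.71 CPM (-2.54 ± 0.11, adjusted p = 1.74e-09). PEG10, an imprinted gene derived from a retrotransposon, was at 3.25 to 4.18 CPM against 0.435 to 0.980 CPM. The C4-2B libraries lay wholly below the C4-2 libraries in each of the 4 genes.

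The remaining large falls were in genes of varied roles. PDZRN4, a member of a family of PDZ-domain ubiquitin ligases, was at 3.04, 2.86 and 2.89 CPM in C4-2 and 0.192, 0.263 and 0.186 CPM in C4-2B (-3.73 ± 0.34, adjusted p = 9.55e-06). MMP16, a membrane-type matrix metalloproteinase, was 7.77-fold lower, and SDC2, a heparan sulfate proteoglycan, was 7.0-fold lower. SLC18B1, a vesicular polyamine transporter, was 6.71-fold lower. All 3 had a mean of under 1 CPM in C4-2B. DHFRP1, a pseudogene of dihydrofolate reductase, ranged from 2.20 to 10.9 CPM within C4-2, and its call was lost with DESeq2 (adjusted p = 0.148). Its log2 fold change of -4.01 came to -3.39 without the first C4-2 library and -5.97 without the first C4-2B library.

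Androgen-induced genes were more often higher than lower in C4-2B, by small steps. KLK3, the gene of prostate-specific antigen, was at 4603, 4759 and 4720 CPM against 5338, 5390 and 5529 CPM (log2 fold change 0.25 ± 0.05, adjusted p = 0.00108), without overlap. The difference is under 2-fold, and KLK3 was not higher in C4-2B in the cultures with RANKL (-0.21 in each, log2). Of 31 androgen-induced genes tested, 21 were higher and 5 lower at an adjusted p under 0.05, beside 16.4% and 14.7% of all genes, with a median log2 fold change of 0.27 against -0.01 for all genes. The list median was 0.14 with MG63, and 0.09 and 0.03 in the cultures with RANKL, where 12 were higher and 7 lower, and 8 and 7, at an unadjusted p under 0.05. The summed level of the list was higher in C4-2B in mono-culture (9937 to 10286 against 11388 to 11991 CPM), but lower in mono-culture with RANKL (8553 and 8502 against 8001 and 7958 CPM) and with RAW264.7 (7743 and 7687 against 7256 and 6892 CPM). SPOCK1 (1.38), a secreted proteoglycan, and PMEPA1 (1.04), a feedback inhibitor of TGF-beta and androgen signalling, passed the 2-fold line, and TMPRSS2, a serine protease that is a partner in PCa gene fusions, was just under it (0.98). PMEPA1 stood at 164 to 166 CPM in C4-2 and 318 to 343 CPM in C4-2B, and came to 0.9987 without the TMM factors. ABCC4 (-1.22), an exporter of cyclic nucleotides, was the called gene that was lower, and its call was lost without the first C4-2, the first C4-2B or the second C4-2B library (adjusted p = 0.0745, 0.0671 and 0.0511).

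Of 17 genes listed as repressed by androgens, 6 were tested, of which 3 were called lower and 1 higher, beside 0.755% and 0.877% of all genes. Their median log2 fold change was -0.69, and the list summed to 487 to 506 CPM in C4-2 and 253 to 255 CPM in C4-2B. The median was -1.14 with MG63, and -0.03 and 0.11 in the cultures with RANKL. PPFIA2, a liprin that organizes presynaptic sites, was at 104 to 111 CPM in C4-2 and 27.6 to 31.3 CPM in C4-2B (-1.83 ± 0.06, adjusted p = 3.39e-10). PRUNE2, a gene with a noncoding antisense partner in PCa, was at 297 to 307 CPM against 137 to 143 CPM (-1.05 ± 0.04). MMP16 belongs to the same list. NRXN3, a neurexin, went the other way, with 2.44 to 2.65 CPM against 6.83 to 7.58 CPM (1.55 ± 0.26). CYP11A1, which makes pregnenolone from cholesterol, was the called gene among 10 enzymes of steroid metabolism (1.06), and 5 of the 10 were higher at any fold, beside 16.4% of all genes. CYP11A1 was lower in C4-2B with MG63 (-0.68), at 8.18 and 9.27 CPM against 11.4 and 16.7 CPM in C4-2, without overlap.

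Over 3 lists of genes with a role in bone or in TGF-beta and BMP response, with 6, 10 and 21 genes tested, 5 genes were called at 2-fold. Of all genes, 1.63% were called. PMEPA1, among the 5, is also on the androgen-induced list. Of 24 genes of bone matrix and osteoblasts, 6 were tested, and 2 were higher and 1 lower at any fold. ENPP1, which makes the mineralization inhibitor pyrophosphate, was lower in C4-2B (3.86 to 4.90 against 1.72 to 2.45 CPM, log2 fold change -1.03 ± 0.26, adjusted p = 0.00870), and fell short of 2-fold without the first C4-2 or the second C4-2B library (-0.94 and -0.93). FN1, fibronectin, was higher by less than 2-fold, at 575, 507 and 545 CPM in C4-2 and 874, 855 and 921 CPM in C4-2B (0.75). Among 10 secreted bone-acting factors tested, 5 were higher and 0 lower at an adjusted p under 0.05 in edgeR, beside 16.4% and 14.7% of all genes, at a median of 0.29, and 9 of the 10 did not pass 2-fold. MDK, the heparin-binding growth factor midkine, passed, with 93.7, 100.3 and 95.7 CPM in C4-2 and 192, 215 and 203 CPM in C4-2B (1.12 ± 0.05, adjusted p = 3.50e-09). BMP7 (0.76) and VEGFA (0.71), an osteogenic ligand and the vascular growth factor, were among the others. The list median was 0.11 with MG63 but -0.13 and -0.18 in the cultures with RANKL, where MDK was lower in C4-2B (-0.23 in each, log2, unadjusted p = 0.0373 and 0.0294 in edgeR). Among 21 TGF-beta and BMP response genes, PMEPA1 and BMPR1B, a BMP receptor, were higher (1.04 each, BMPR1B just under 2-fold without the third C4-2B library) and ID4, an inhibitor of helix-loop-helix factors, was lower (-1.62), while at any fold 5 were higher and 5 lower, beside 16.4% and 14.7% of all genes. Among 10 WNT targets and antagonists, 0 were called in edgeR and 1, RNF43 (-0.78), was lower at any fold.

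SERPINA3 and LCN2, the secreted proteins on which the study centres, were at low levels in both lines. SERPINA3 stood at 0.974, 1.31 and 0.925 CPM in C4-2 and 0.750, 0.847 and 0.324 CPM in C4-2B. The means differed by -0.43 CPM (exact permutation p = 0.1, two-sided, which is as low as 3 against 3 libraries can reach). The ranges did not overlap. LCN2 was at 0.0816, 0.297 and 0.231 CPM in C4-2 and 0.336, 0 and 0 CPM in C4-2B. These values are at most 12.3 counts per library and do not separate the lines (exact permutation p = 0.6).

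The mesenchymal and epithelial lists each held genes in both directions. VIM, the intermediate filament of mesenchymal cells, was at 18.4, 20.4 and 19.2 CPM in C4-2 and 3.45, 4.33 and 4.28 CPM in C4-2B. The difference was 4.81-fold (-2.22 ± 0.09, adjusted p = 1.64e-09), with no other called gene among 10 mesenchymal genes tested, of which 4 were higher and 2 lower at any fold (16.4% and 14.7% of all genes). SNAI2, a repressor of epithelial genes, was in the other direction at 0.90. KRT19, a simple epithelial keratin, was at 13.3 to 17.0 CPM against 41.3 to 50.3 CPM (1.64 ± 0.10, adjusted p = 4.50e-08), and OVOL2, a factor that keeps cells epithelial, was lower (-1.20). These were the called genes among 22 epithelial genes tested, of which 5 were higher and 4 lower at any fold, and the E-cadherin gene CDH1 differed by -0.05 ± 0.06. Of 12 integrins and adhesion receptors, 7 were lower and 1 higher, beside 14.7% and 16.4% of all genes, at a median of -0.35 and with 0 called at 2-fold in edgeR. The largest of them were CDH26 (-0.98), ITGA2 (-0.74), ITGA5 (-0.61) and ITGA6 (-0.58), and ITGB1, the common beta subunit, did not pass (-0.06).

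Glycolysis and hypoxia genes were the list with the largest share of higher genes among the longer lists. Of 26 tested, 22 were higher and 2 lower in C4-2B at an adjusted p under 0.05, beside 16.4% and 14.7% of all genes, with a median log2 fold change of 0.49. The list summed to 15149, 16141 and 15897 CPM in C4-2 and to 18295, 21293 and 19977 CPM in C4-2B. The groups did not overlap, and the first C4-2B library was the lowest of its line. The share of counts from mitochondrial genes also separated the lines, at 9.59% to 9.82% in C4-2 and 8.87% to 9.20% in C4-2B, as did that of ribosomal protein genes, at 15.7% to 16.1% and 16.4% to 17.3%. Their part in the result was not tested. PFKFB4, a kinase that raises the activator of phosphofructokinase, was the called member, at 13.4, 16.6 and 14.5 CPM against 24.4, 37.8 and 36.1 CPM (1.19 ± 0.17, adjusted p = 1.19e-04). BNIP3, a mitophagy receptor, followed at 0.99, then SLC16A3, the lactate exporter (0.92), and ALDOC, an aldolase (0.91). LDHA, lactate dehydrogenase, was at 0.55. EGLN3, an oxygen-sensing hydroxylase, was in the other direction (-0.57). The median was smaller in the other cultures: 0.20 with MG63, 0.09 in mono-culture with RANKL and 0.06 with RAW264.7 and RANKL.

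More lipid synthesis genes were higher than lower in C4-2B, and 1 of them was called at 2-fold. Of 28 genes of cholesterol and fatty acid synthesis, 16 were higher and 4 lower, beside 16.4% and 14.7% of all genes, with a median of 0.16. ELOVL5, which elongates polyunsaturated fatty acids, was at 434, 432 and 456 CPM in C4-2 and 1028, 996 and 1075 CPM in C4-2B (1.27 ± 0.04, adjusted p = 2.40e-10). SCD, the desaturase that makes oleic acid, was at 0.88 and FASN, fatty acid synthase, at 0.49, and SQLE, squalene epoxidase, was lower (-0.42). The direction of the list median was the same in the other 3 cultures (0.21, 0.10 and 0.09), where 17, 11 and 11 members were higher and 2, 4 and 4 lower at an unadjusted p under 0.05 with MG63, with RANKL and with RAW264.7. In either direction, 31.9%, 24.9% and 24.8% of all genes passed there.

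**Figure D2:**
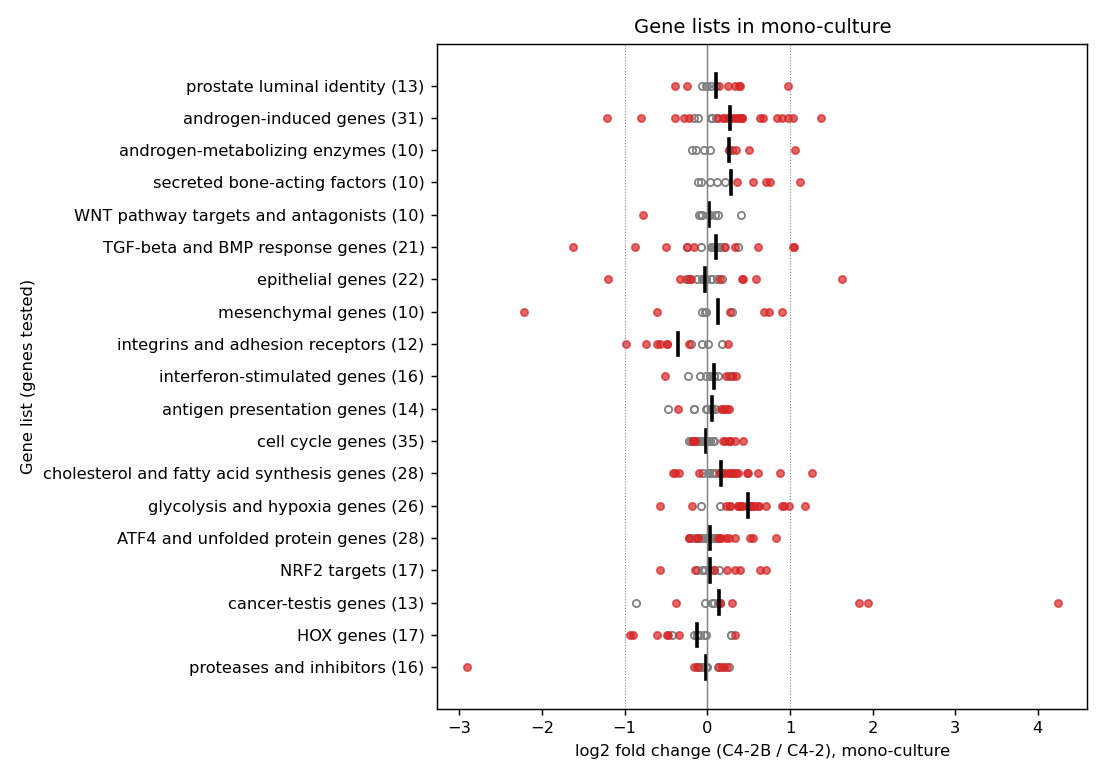
Log2 fold changes of C4-2B over C4-2 in mono-culture for each gene of the lists with 10 or more genes tested (number in brackets). Filled points have an adjusted p under 0.05, open points do not, black bars are list medians and dotted lines mark 2-fold. Glycolysis and hypoxia genes have the highest median, 0.49, and integrins and adhesion receptors the lowest, -0.35.

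Of 8 IGF system genes tested, 2 were called higher, as were 2 of 7 acute-phase and NF-kB response genes, beside 0.877% of all genes. IGFBP3, the main carrier of insulin-like growth factors, rose from a mean of 41.2 ± 2.7 to 99.6 ± 4.8 CPM (SD, n = 3), and IRS1, an adaptor of the insulin receptor, from 5.0 to 10.1 CPM, just under 2-fold without the third C4-2B library. IL32, a proinflammatory cytokine, was at 0.504, 0.396 and 1.09 CPM against 2.99, 3.68 and 2.42 CPM. It reached 100 counts in C4-2B alone, so that its entry into the test and its direction are tied. TNFAIP2, a target of NF-kB, was 2.15-fold higher, or under 2-fold without the first C4-2 library (0.93, log2). SYT4, a synaptotagmin, was 3.0-fold lower in C4-2B (77.5 against 25.8 CPM) and was the called gene among 5 neuroendocrine and neuronal genes tested, beside 0.755% of all genes called lower. At any fold 1 of the 5 was higher and 1 lower. Of 17 HOX genes, 6 were lower at any fold, beside 14.7% of all genes, and 1, HOXB13, the prostate homeobox factor, was higher (0.33). HOXC8 (-0.93) and HOXA7 (-0.90) were the largest of them. Of 35 cell cycle genes tested, 6 were higher and 5 lower, near the 16.4% and 14.7% of all genes, and the list ranged from -0.22 to 0.43 with a median of -0.02. In total 16 of the 31 lists had no member past 2-fold, including the interferon-stimulated, antigen presentation, NRF2, ATF4, ERBB and mismatch repair genes.

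The same lines in the other cultures gave a check on libraries that the calls did not use. With MG63, 185 of the 188 genes differed in the same direction, and 166 (88.3%) did so at an unadjusted p under 0.05, which 31.9% of all genes passed in either direction. In mono-culture with RANKL, 68 (36.2%) did so, beside 24.9% of all genes, and with RAW264.7 and RANKL 67 (35.6%), beside 24.8%. Pearson's r of the log2 fold changes over the 188 genes was 0.91 with MG63 and 0.33 in each culture with RANKL. Genes are not independent replicates, and the called genes were selected on the mono-culture values. In the opposite direction at p under 0.05 were 1, 27 and 25 genes. The median difference in the direction of the mono-culture call was 1.32 (log2) with MG63, but 0.29 and 0.32 with RANKL, where the same genes had a median size of 1.36 in mono-culture.

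**Figure D3:**
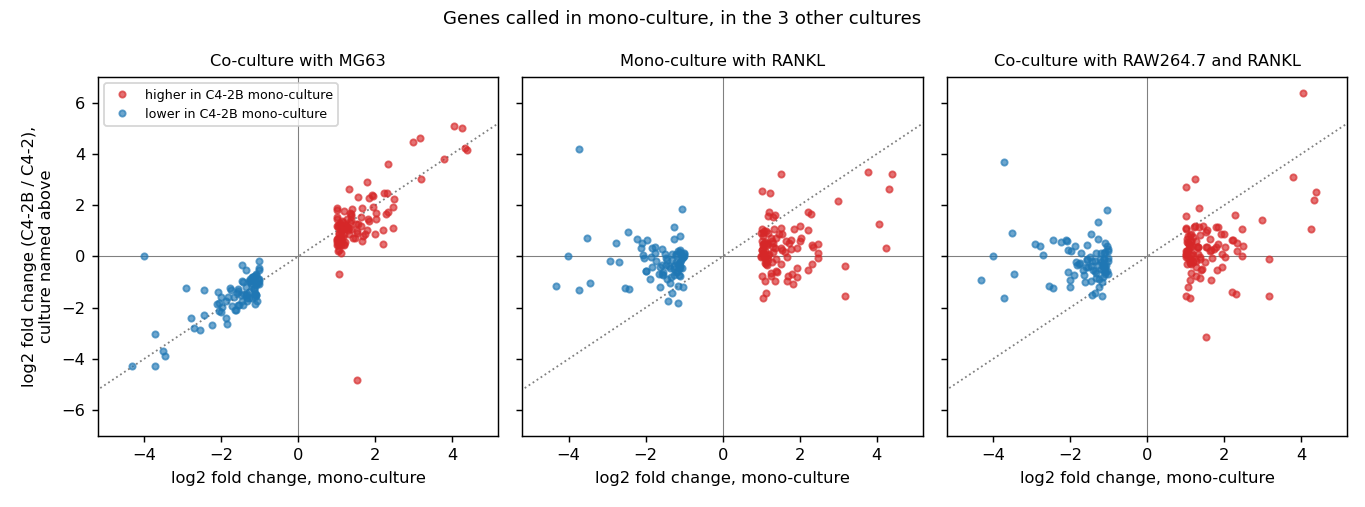
Log2 fold change of C4-2B over C4-2 in 3 other cultures (vertical axes) against that in mono-culture (horizontal axis), 1 point per called gene that is not on chromosome Y (184 genes). The dotted line marks equal values. Points follow it with MG63. In the cultures with RANKL they lie on both sides of 0, and 123 and 126 of all 188 called genes keep the mono-culture direction.

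The change of the line difference was tested as an interaction. Between mono-culture and the mean of the 3 other cultures, it was over 2-fold at an adjusted p under 0.05 in 94 genes (0.816%). Since MG63 co-cultures went with the mono-cultures, the contrast of cultures without RANKL against those with RANKL was added after the data were seen, and it was met by 225 genes (1.95%). It included 100 of the 188 called genes, 48 higher and 52 lower in mono-culture. The mono-culture values are part of this contrast and also picked the 188 genes. The 100 therefore cannot be set against the share of all genes. Of these 100, 28 changed between the cultures without and with RANKL in C4-2 and not in C4-2B, 35 in C4-2B and not in C4-2, 15 in both lines and 22 in neither by the same rule. All cultures with RANKL had the lower depth, as did those with MG63. RANKL and the time or set in which those cultures were made cannot be told apart.

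Single genes showed the ways in which this happened. SSX2 was at 13.6 to 24.1 CPM in the 5 C4-2B libraries without RANKL and at 0.338 to 0.555 CPM in the 4 with it, while C4-2 was at or under 1.01 CPM throughout. HS3ST1 was low only in C4-2 without RANKL, at 2.26 to 6.51 CPM in 5 libraries, and was at 32.9 to 43.5 CPM in the 4 C4-2 libraries with RANKL, within the range of the 9 C4-2B libraries (25.8 to 55.4 CPM). PDZRN4 turned round: it was at 2.86 to 5.13 CPM in C4-2 and at most 0.364 CPM in C4-2B without RANKL, and at most 0.331 CPM in C4-2 and 2.69 to 3.23 CPM in C4-2B with it. VIM went from 18.4 to 23.5 CPM in C4-2 against 3.24 to 4.33 CPM in C4-2B without RANKL to 6.45 to 8.94 against 10.9 to 14.3 CPM with it. NR2F1 was at 6.43 to 7.80 CPM in the C4-2 libraries without RANKL and at or under 2.20 CPM in all others. The interactions on the log2 scale were 3.92 ± 0.48 for SSX2, 3.36 ± 0.18 for HS3ST1, -7.92 ± 0.43 for PDZRN4, -3.07 ± 0.16 for VIM and -4.42 ± 0.49 for NR2F1 (SE, edgeR adjusted p between 2.15e-09 and 2.32e-05).

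Other genes differed between the lines in all 4 cultures. The mono-culture call was met in the same direction in every other culture by 13 genes, 8 higher and 5 lower, and 49 genes (27 higher, 22 lower) passed at an unadjusted p under 0.05 in all 3. CA2 was at 0.329 to 1.63 CPM over the 9 C4-2 libraries and 5.88 to 13.3 CPM over the 9 C4-2B libraries. CA1 was at 0.857 to 5.54 CPM and 10.2 to 57.1 CPM. SLC22A3 was above all C4-2B libraries in every C4-2 library, at 8.38 to 38.4 CPM against 1.45 to 3.68 CPM. MACROH2A2 likewise separated the lines, at 7.94 to 10.2 CPM against 0.947 to 4.45 CPM. The 5 lower genes were SLC22A3, MACROH2A2, LPAL2, ID4 and PALMD. Besides CA1 and CA2, the 8 higher genes were CYP4F3, CYP4F23P, MYLK, GRIK2, RND3 and SOHLH2, of which those not named before were singled out after their values were seen.

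**Figure D4:**
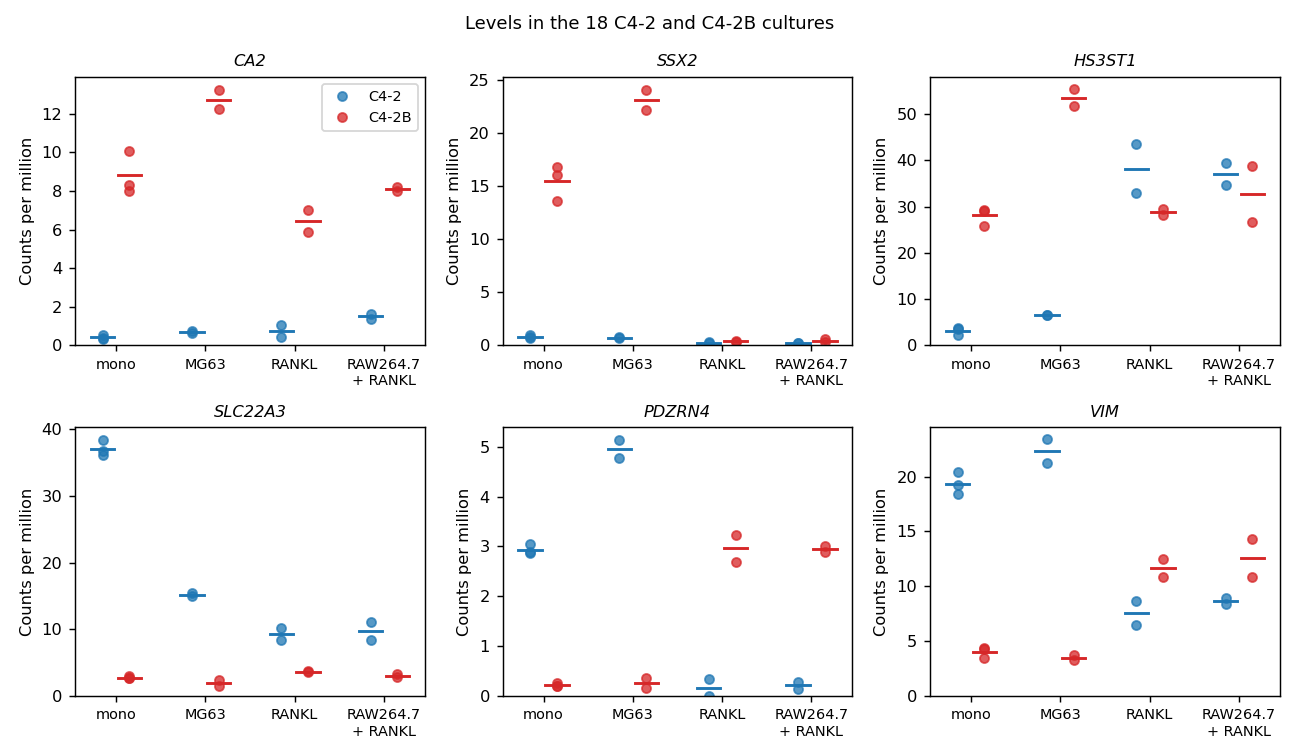
CPM of 6 genes in the 18 C4-2 (blue) and C4-2B (red) libraries by culture, points being libraries and lines their means. CA2 and SLC22A3 separate the lines in all 4 cultures, SSX2 is at or under 0.555 CPM in both lines with RANKL, HS3ST1 is low in C4-2 without RANKL, and PDZRN4 and VIM turn round with RANKL.

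Differences between the lines were not spread evenly over the genome. Among the autosomes and chromosome X, the median log2 fold change lay between -0.04 and 0.04 in mono-culture apart from chromosome 3 (0.23, 644 genes) and chromosome 8 (-0.22, 407 genes). Chromosome Y was left out of this description. On chromosome 3, 73.6% of genes had a log2 fold change above 0, and on chromosome 8, 16.7%. Positions are those of GENCODE 29 on GRCh38, matched through the transcript identifiers. The submitters' notes name hg19, so that these are not the coordinates of their build. These are descriptions, with no test over genes.

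Windows of 25 neighbouring genes gave long runs of raised genes on chromosome 3. One run spanned positions 3126916 to 44873376 (TRNT1 to KIF15) with 139 genes tested, 134 of them above 0 and a median of 0.38, and the next spanned 45001548 to 71583993 (CLEC3B to FOXP1) with 162 genes, 157 above 0 and a median of 0.40. At an adjusted p under 0.05, 105 genes of the first and 134 of the second were higher, and 1 gene in each was lower, beside 16.4% and 14.7% of all genes. The runs were chosen on these same fold changes, so that the counts only describe them. Called members were BHLHE40, a clock and hypoxia repressor (1.07), PPARG, the lipid-sensing nuclear receptor (1.81), FBLN2, a matrix fibulin (1.11), PFKFB4, ACOX2 and the readthrough gene ABHD14A-ACY1 (1.00), while MYRIP (-1.15) and CLEC3B (-1.06) were lower. Several lay at the 2-fold line: BHLHE40 came to 0.86 without the second C4-2B library, FBLN2 to 0.97 without the first C4-2 library, ABHD14A-ACY1 to 0.89 without the third C4-2 library and CLEC3B to -0.95 without the first C4-2B library. PPARG stood at 3.44 to 5.11 CPM in C4-2 and 14.9 to 15.7 CPM in C4-2B, more than the run as a whole.

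The chromosome 3 runs followed the culture too. Their medians were 0.36 and 0.43 with MG63, but 0.05 and 0.06 in mono-culture with RANKL and 0.05 and 0.07 with RAW264.7 and RANKL. Relative to the genes outside all runs, the level of the second run was between -0.28 and -0.25 (log2) in the 5 C4-2 libraries without RANKL. It was between 0.03 and 0.07 in the 4 C4-2 libraries with RANKL, and between 0.10 and 0.17 in all 9 C4-2B libraries. The C4-2 libraries without RANKL thus stood below all others. A run on chromosome 6 (41546426 to 52576915, 67 genes, FOXP4 to TRAM2) did the same, with medians of 0.30 and 0.25 without RANKL and 0.00 and 0.01 with it. It holds CD2AP, an adaptor of the actin skeleton (1.13), and CYP39A1, an oxysterol hydroxylase (-2.07).

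Other stretches kept their difference in all cultures. Chromosome 8 as a whole had medians of -0.22, -0.21, -0.30 and -0.28 in mono-culture, with MG63, with RANKL and with RAW264.7. Within it, 26 genes from SLC25A32 to ZHX2, TRPS1 among them, had a median of -0.32 in mono-culture. A pair of runs on chromosome 16, 39 genes from RFWD3 to USP10 and 29 genes from ZCCHC14 to FANCA, had medians of 0.27 and 0.28 in mono-culture and between 0.27 and 0.37 in the other cultures. CA1 and CA2 lie on chromosome 8 as well, against the direction of its median. Of 14 pairs of called neighbours within 500 kb of each other, 13 moved in the same direction, among them CA1 and CA2, SLC22A3 and LPAL2, and LMAN1L and CPLX3. The 13 also hold pairs that may share reads: AMACR with its readthrough gene, XAGE1A with XAGE1B, and the 3 pairs of the CYP4F family.

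**Figure D5:**
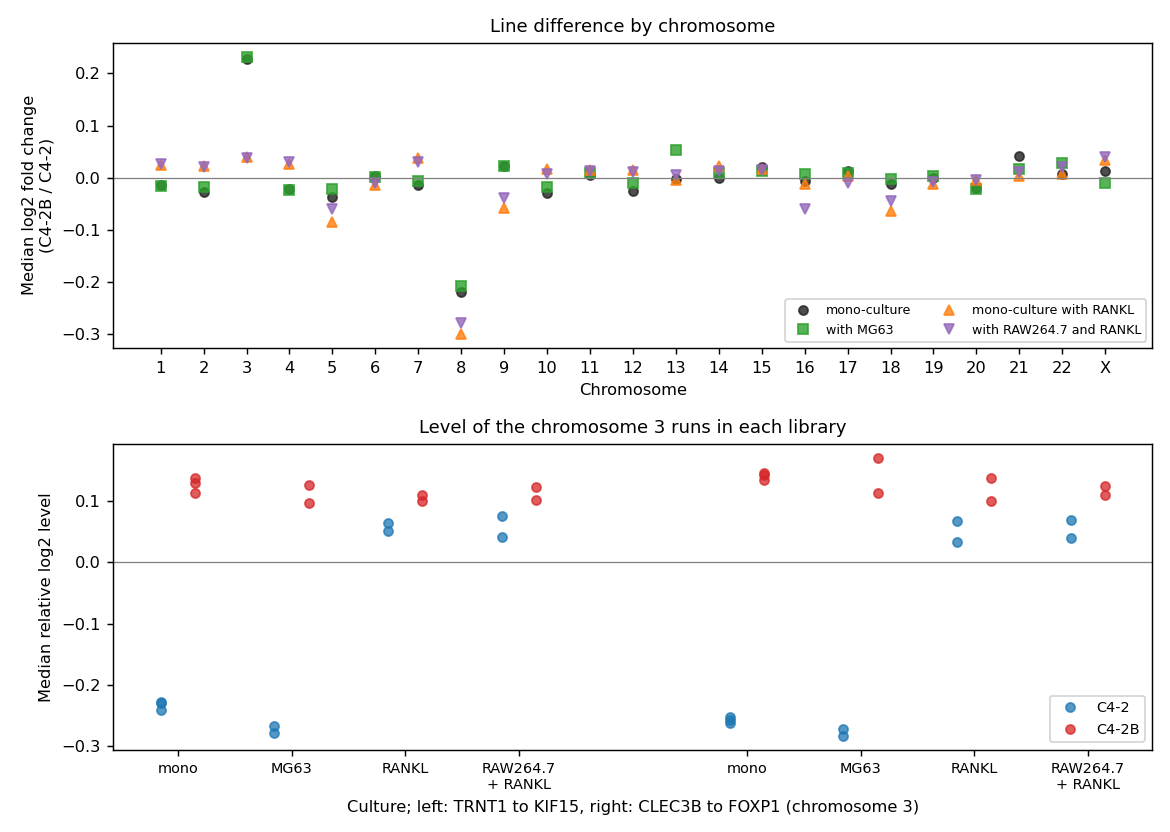
Top, the median log2 fold change of C4-2B over C4-2 for the tested genes of each chromosome in 4 cultures. Bottom, the median log2 level of the genes of each chromosome 3 run in each library, relative to its mean over 18 libraries and to genes outside all runs; the C4-2 libraries without RANKL lie between -0.28 and -0.23, and all others lie above 0.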

How the data were processed

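Per the labels, poly(A) RNA of 36 samples was sequenced with a strand-specific kit. The authors deposited kallisto estimated counts per transcript, made before the tximport step that the study describes. The submitters' notes also name FastQC and hg19. All 36 columns were mapped to samples by name. Transcripts listed more than once were used once (159837 transcripts), summed by gene symbol and rounded. Transcripts that the file pairs with no symbol took 0.682% to 0.724% of the counts of the 6 mono-cultures and stayed in the library totals only.

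The 11522 genes that reached 100 counts in any of the 6 libraries were tested with edgeR 4.0.16 in R 4.3.3 (quasi-likelihood F test, TMM). The fit held the 12 mono-cultures without RANKL (8 residual df). The other cultures were fitted on 18 C4-2 and C4-2B libraries. A gene was called at over 2-fold and a Benjamini-Hochberg adjusted p under 0.05. DESeq2 1.42.0 was an alternative. On simulated counts, the mono-culture fit recovered 100 of 100 genes changed 2.5-fold and 100 of 100 changed 4-fold, with 2 false calls among 11522 genes. The changed genes were drawn from those well counted in C4-2, and all simulated lines otherwise had the C4-2 levels. The recovery therefore does not cover genes at low level in C4-2. The precision of low values is limited by counting error.

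The genes, the gene lists and the choice to describe this comparison were made with earlier results of these data known. Genes named were the 12 largest rises and 12 largest falls (not overlapping, at 2 CPM or more in the higher line, not on chromosome Y and not XIST), up to 4 called members per list or else the 2 highest expressed, KLK3, SERPINA3, LCN2, the 4 largest interactions and called genes of 3 runs of neighbours. Some genes that the rule names are not reported here. Other genes were named after their values were seen. Alternatives were normalization, filter, tool, libraries, replicate block and unit.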

Additional observations from a re-analysis of the deposited data

Results flagged for a closer look

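The difference between C4-2B and C4-2 changed between the cultures without and with RANKL by more than 2-fold at an edgeR adjusted p under 0.05 in 36 of the genes named by the rule, and each is flagged for that. The contrast was chosen after the data were seen, and it holds the mono-culture values by which most of these genes were picked. Values are the log2 fold change without RANKL minus that with RANKL. Among genes higher in C4-2B mono-cultures it was 1.40 for CA2, 3.92 for SSX2, 3.36 for HS3ST1, 1.95 for GPR143, 2.09 for ACOX2, 1.80 for MYL9, 1.42 for CPLX3, 2.70 for GRPR and 1.56 for CYP4F12. It was also 1.00 for NRXN3, 1.40 for MDK, 2.32 for IL32, 1.11 for TNFAIP2, 2.12 for XAGE1A, 2.35 for XAGE1B, 5.44 for ANKRD19P, 2.24 for PPARG, 1.91 for FBLN2 and 1.44 for CD2AP. ANKRD19P is a pseudogene whose C4-2B mono-cultures ranged from 1.01 to 3.45 CPM.

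Among genes lower in C4-2B it was -3.24 for MAN1A1, -7.92 for PDZRN4, -1.90 for SLC22A3, -4.42 for NR2F1, -2.79 for TRPS1, -2.23 for MMP16, -3.04 for SDC2, -2.66 for SLC18B1, -1.51 for MACROH2A2, -2.69 for PEG10 and -1.10 for LPAL2. It was -1.32 for PPFIA2, -1.20 for SYT4, -3.07 for VIM, -1.19 for CLEC3B and -1.83 for CYP39A1. WASF2, a regulator of actin branching, was not called in mono-culture (adjusted p = 0.418) and had an interaction of -4.19, with C4-2B mono-cultures between 0 and 3.62 CPM. The deposited data pair this symbol with 1 transcript, so the value may not stand for the level of the gene. CA2, SLC22A3, MACROH2A2 and LPAL2 were also called in the same direction in all 4 cultures, so that in these the difference was smaller with RANKL but did not vanish. RANKL and the set in which those cultures were made cannot be told apart.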

How the results depend on the processing

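The counts of 101 higher and 87 lower genes became 210 and 229 with no filter on low counts, and 1886 and 1697 with no minimum fold change. The lower genes became 56 when a mean of at least 100 counts over the 6 libraries was required and 50 with scaled TPM, with 80 and 84 higher genes. The other alternatives gave between 88 and 108 higher and between 81 and 94 lower genes, among them 108 and 92 with the replicate block. Leaving out each library in turn gave 96 to 107 higher and 82 to 93 lower genes, 158 to 162, 58 to 63 and 56 to 65 genes kept with MG63, with RANKL and with RAW264.7, and 90 to 105 interactions. The 94 interactions became 225 for cultures without against with RANKL and 13 for mono-culture against MG63 co-culture. The block gave 92 interactions. Same-numbered libraries of the lines did not deviate together (r between -0.03 and 0.06), so equal numbers were not taken as pairs.

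Of 1205 values of named genes under alternatives, 8 changed sign, all of genes that did not pass: with library size alone CCND1 (-0.0158), FTH1 (-0.0085), IFITM3 (-0.0081), MSH6 (-0.0267) and MYC (-0.0169), and without 1 library CDK4 (between -0.0281 and 0.0089) and IFITM3 (between -0.0063 and 0.0672). A further 26 lost the call and 2 gained it. With scaled TPM the calls of ABCC4, BMPR1B, CYP39A1, DHFRP1 and GPR143 were lost (adjusted p = 0.148, 0.0230, 0.0502, 0.0813 and 0.193; BMPR1B by fold). The cause was not tested.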

Other observations

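The difference in SOHLH2, a helix-loop-helix factor of germ cells, was larger in the cultures with RANKL. It was higher in C4-2B by 1.24 (log2) in mono-culture and with MG63, by 2.49 in mono-culture with RANKL and by 3.02 with RAW264.7. EPHA3, an ephrin receptor, was lower in C4-2B by -1.06 in mono-culture and -0.86 with MG63 but higher by 1.85 and 1.79 in the cultures with RANKL. AIDA, an axin-binding protein, was higher by 1.26 and 1.15 without RANKL and lower with it (-0.66 and -0.41); its mono-culture means were 183 and 426 CPM. These genes were chosen after their values were seen.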
